A study of Saccharomyces cerevisiae with 18 samples.

Results

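Transcript levels in Saccharomyces cerevisiae cultures exposed to 5 mg/L nonylphenol for 180 min (3 arrays) were compared with those in control cultures given ethanol, the solvent, for 180 min (3 arrays). These 6 arrays were chosen by their titles from the 18 arrays of the study, and all 5498 S. cerevisiae probe sets that carry 1 gene name were followed. Cultures of 1 mg/L at 180 min, and of 5 mg/L and control at 120 min, with 3 arrays each, were used to set the response against dose and time. All groups were BY4742, a laboratory strain that is haploid and of alpha mating type, grown in YPD, a rich glucose medium, and dosed during mid-exponential growth. The labels call the 3 arrays of a group biological replicates of a single strain and say nothing of shared starter cultures, so p-values reflect only the variation among these arrays. Values are log2 signals per probe set, scaled between arrays by the authors.

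Nonylphenol is an alkylphenol left when nonionic surfactants break down, a poorly soluble compound that partitions into membranes and is known as an endocrine disruptor in animals. Yeast meets lipophilic and weakly acidic compounds with plasma membrane pumps under the regulators Pdr1 and Pdr3, and with a general stress programme under Msn2 and Msn4. Growth in glucose, iron supply, mating type and nutrient state each have their own regulons in which groups of genes move together.

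The mating type and strain markers were read first. STE3, the a-factor receptor of alpha cells, averaged 9.60 at 5 mg/L and 10.05 in control, and SAG1, the alpha agglutinin, averaged 11.68 at 5 mg/L and 11.42 in control, so both alpha-specific genes stood far above the background level of 1.86. The a-specific genes STE2, MFA1, BAR1, MFA2, AGA2 and ASG7 also averaged above that level in control (4.32, 3.83, 3.70, 2.52, 2.18 and 2.07). Their signals were lower than those of STE3 and SAG1. LYS2 averaged 1.57 at 5 mg/L and 1.55 in control, and URA3 1.00 at 5 mg/L and 1.24 in control, which is under background, as their deletion in this strain implies. LEU2 (2.89 at 5 mg/L, 3.04 in control) and HIS3 (8.94 at 5 mg/L, 9.48 in control) were read above background although the standard genotype lacks LEU2 and part of HIS3. Whether these probe sets lie outside the deleted parts could not be checked. A control signal up to that of LEU2 may thus not show a transcript, and the size of a rise from it is uncertain.

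At 5 mg/L, 3374 of 5498 probe sets (61.4%) were called, that is, had a limma adjusted p under 0.05 against control. Higher calls numbered 1489 (27.1%) and lower calls 1885 (34.3%). Most of these changes were small, since 168 higher and 21 lower calls reached 2-fold, and 30 higher and 1 lower reached 4-fold. The array values of the groups did not overlap for 3849 probe sets (70%), of which 3311 were called. The median change over all probe sets was log2 -0.04. A count of members, or a lack of overlap, in the gene groups that follow has to be read against these shares. In a whole culture, a change in the number of cells that express a gene cannot be told apart from a change in transcript per cell.

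**Figure D1:**
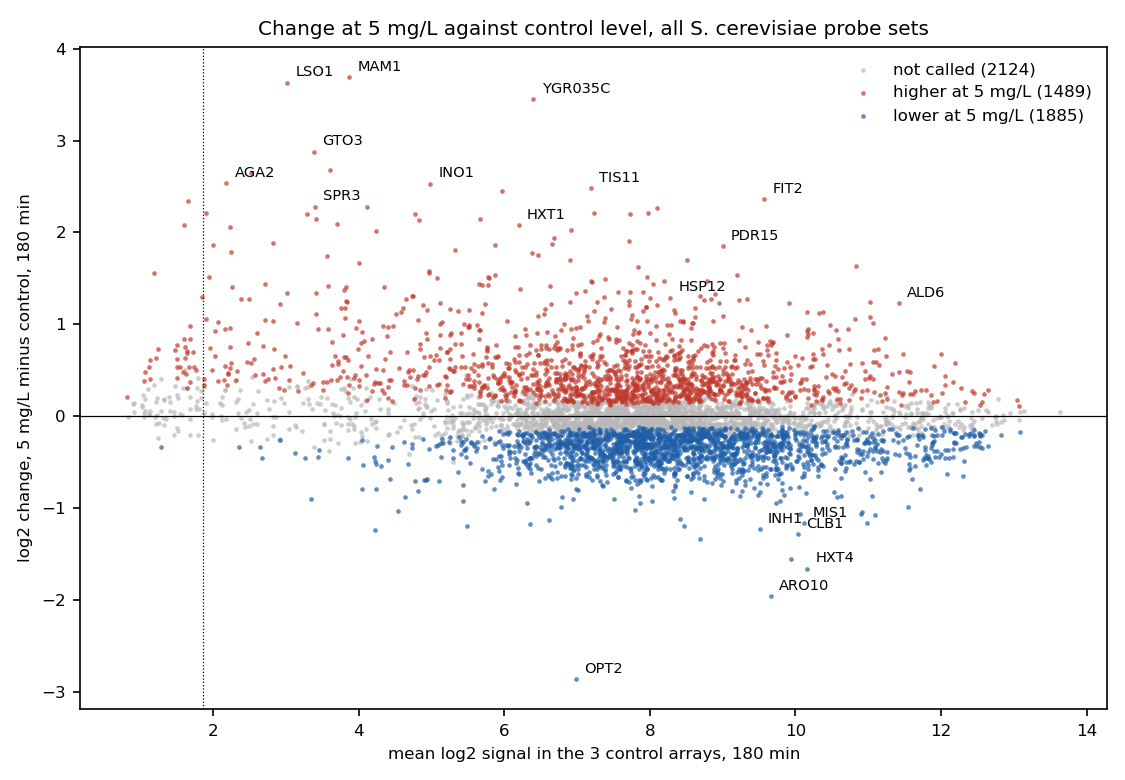
Each point is 1 S. cerevisiae probe set, with its mean log2 signal in the 3 control arrays at 180 min on the x axis and its log2 change at 5 mg/L against control on the y axis. Red points were called higher and blue points lower (limma adjusted p under 0.05), grey points were not called, and the dotted line is the background level of 1.86. Labelled rises run from LSO1 at a low control signal to ALD6 at a high one, but most of the 15 largest rises had control signals under 6. OPT2 is the single fall beyond 4-fold.

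Changes depended on the control level. Probe sets with control signals of 2 to 4 had a median of 0.31, with 99 higher and 10 lower among 206, those of 4 to 6 had a median of 0.14, with 188 higher and 86 lower among 444, and those over 10 had a median of -0.12, with 131 higher and 295 lower among 663. Probe sets for another yeast species on the same array had a median of -0.02. All changes are relative to the authors' scaling between arrays. Probe sets for poly-A control transcripts, whose use in these libraries is not given in the sources used here, averaged 4.56 at 5 mg/L and 4.32 in control (difference 0.24, SE 0.24), and the difference was 0.01 (SE 0.07) without control replicate 1. Scaling the arrays on these transcripts moves every change by -0.24 and leaves 550 calls, 175 higher and 375 lower, so a list median given below as positive and under 0.24 turns below 0 there. The gap between the 3' and 5' probe sets of ACT1 ran from 0.64 to 0.79 at 5 mg/L and from 0.74 to 0.96 in control, and its part in the results was not tested.

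The largest rises belonged to genes of meiosis, iron supply, mating, inositol synthesis and to genes of unknown function. MAM1, which acts at kinetochores in meiosis I, read 7.69, 7.85 and 7.16 at 5 mg/L, against 4.10, 3.75 and 3.77 in control. It was 13-fold higher (log2 3.69, SE 0.18, limma adjusted p = 7.55e-11), and every array at 5 mg/L lay more than 3 log2 units above every control array. LSO1, a small protein induced when iron is scarce, read 6.44, 6.55 and 6.95 at 5 mg/L, against 3.01, 3.13 and 2.91 in control. Its rise was 12.4-fold (log2 3.63, SE 0.15). YGR035C, a gene of unknown function, read 9.89, 9.79 and 9.86 at 5 mg/L, against 6.47, 6.49 and 6.23 in control. It was 10.9-fold higher with the smallest p of the whole comparison (log2 3.45, SE 0.08, adjusted p = 1.5e-14). GTO3, a glutathione transferase of the omega class, read 6.30, 6.43 and 6.08 at 5 mg/L, against 3.43, 3.34 and 3.41 in control, a 7.34-fold rise. YMR317W, of unknown function, followed at log2 2.68.

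INO1, the enzyme that makes inositol phosphate from glucose 6-phosphate, read 7.51, 7.64 and 7.37 at 5 mg/L, against 4.97, 4.79 and 5.16 in control, and was 5.78-fold higher. The other genes of the 15 largest rises from a control level above background were MFA2 and AGA2 of a cells (log2 2.65 and 2.54), TIS11, FIT1, FIT2 and ARN2 of the iron regulon (2.48, 2.45, 2.36 and 2.27), and SPR3, SPS100 and SPO19 of spore formation (2.28, 2.28 and 2.21). The control mean of SPO19 was 1.90, barely above background, so the size of its rise is uncertain. Control means of AGA2, MFA2 and LSO1 (2.18, 2.52 and 3.02) lay under that of LEU2, so the sizes of their rises are uncertain too. Arrays without overlap between the groups were a condition for entering these 15, so their separation is not a result. Where the control mean was at or under background the size of a rise is not known. The 8 such rises with the largest fitted values were SAE3, which acts in meiotic recombination (3.68 at 5 mg/L, 1.60 in control), the named genes SRL4 and FYV12, and the small or uncharacterised reading frames YLR412C-A, YGR273C, YBR072C-A, YIL046W-A and YDR194W-A. No 2-fold fall ended at or under background.

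**Figure D2:**
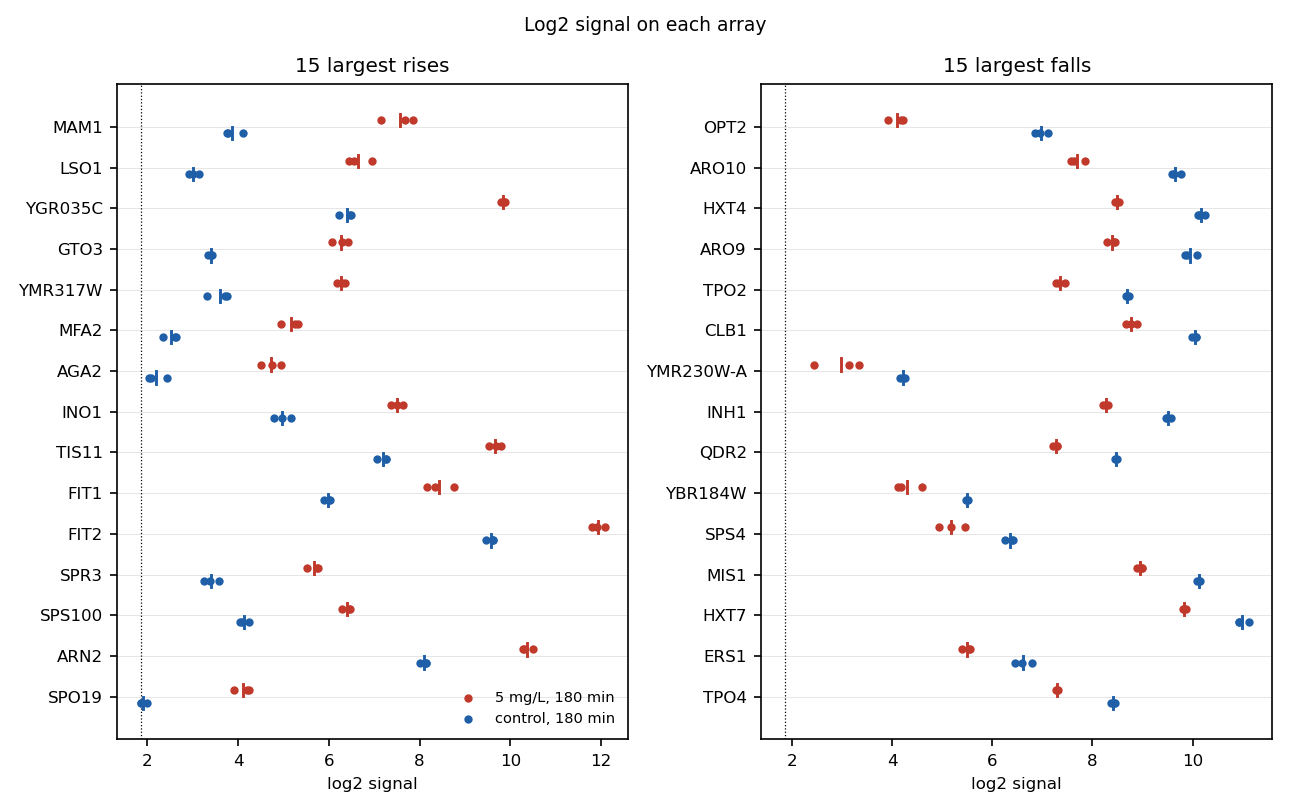
Log2 signal on each array for the 15 largest rises (left) and 15 largest falls (right), with the 3 arrays of 5 mg/L in red above the 3 control arrays in blue, both at 180 min. Short vertical bars are group means and the dotted line is the background level of 1.86. The groups do not overlap in any row, which was a condition of entry. The rows with the widest spread at 5 mg/L are MAM1 and YMR230W-A.

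The largest falls were in nutrient uptake, aromatic amino acid breakdown, polyamine and drug export and mitosis. OPT2, a transporter of the oligopeptide transporter family, read 4.18, 3.93 and 4.22 at 5 mg/L, against 6.95, 6.86 and 7.12 in control. It was 7.27-fold lower (log2 -2.86, SE 0.12, adjusted p = 1.13e-11), with more than 2 log2 units between the nearest arrays of the groups. ARO10, which decarboxylates phenylpyruvate on the way to fusel alcohols, read 7.86, 7.58 and 7.64 at 5 mg/L, against 9.76, 9.62 and 9.59 in control (3.89-fold lower). ARO9, the aromatic aminotransferase of the preceding step, was 2.92-fold lower. HXT4, a high-affinity glucose transporter, read 8.45, 8.50 and 8.54 at 5 mg/L, against 10.25, 10.12 and 10.11 in control, and was 3.16-fold lower.

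CLB1, a mitotic B-type cyclin, read 8.88, 8.76 and 8.66 at 5 mg/L, against 9.99, 10.07 and 10.07 in control (log2 -1.28, SE 0.10). INH1, which blocks ATP hydrolysis by the mitochondrial ATP synthase, read 8.21, 8.32 and 8.28 at 5 mg/L, against 9.47, 9.56 and 9.49 in control (log2 -1.23, SE 0.06). MIS1, a mitochondrial enzyme of one-carbon metabolism, read 8.99, 8.89 and 8.99 at 5 mg/L, against 10.13, 10.08 and 10.14 in control (log2 -1.16, SE 0.05). In all 3 genes the nearest arrays of the groups were more than 1 log2 unit apart. The polyamine transporters TPO2 and TPO4 and the multidrug transporter QDR2 fell by log2 1.34, 1.12 and 1.20, with the second probe set of TPO2 at -0.57. HXT7, read by a probe set of a type that other transcripts can share, ERS1, which resembles the human cystine transporter, SPS4 of sporulation and the uncharacterised YMR230W-A and YBR184W made up the rest, at log2 -1.13 to -1.24.

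Gene lists covering 41 themes were then described by their called members. The lists and members were chosen with earlier results of these data known, so their counts and order describe and do not test. The lists with the highest medians were those of a-specific genes, iron uptake and general stress, and the lists with the lowest were those of the respiratory chain and the G2 and M phases.

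**Figure D3:**
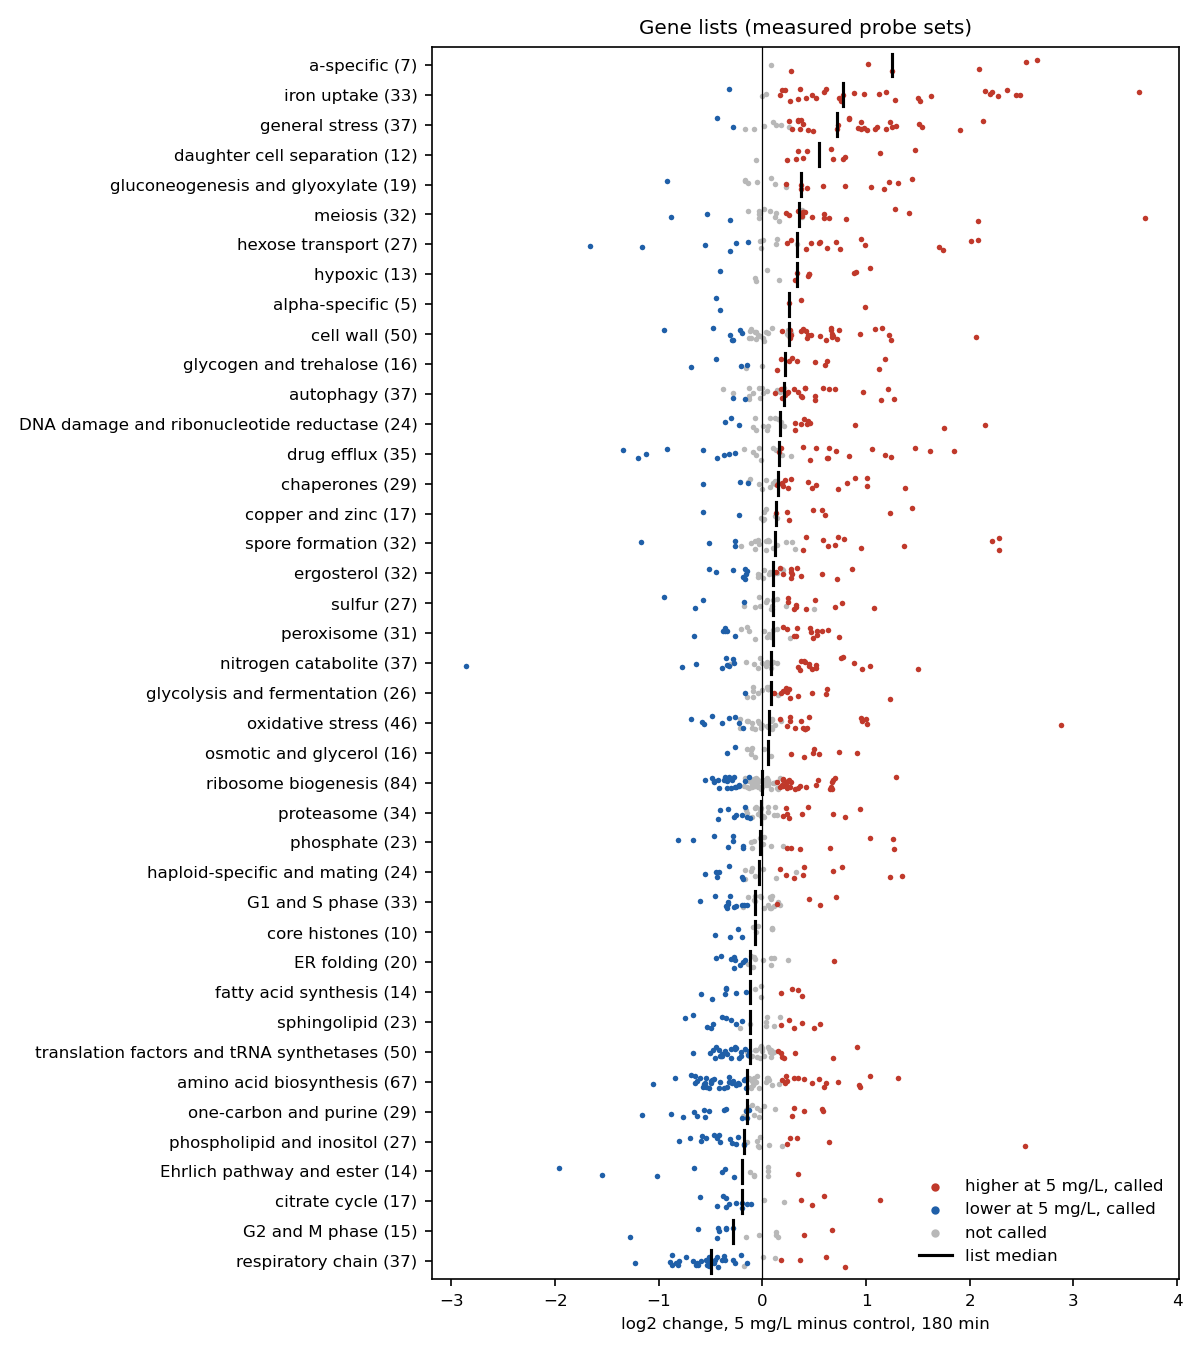
Log2 change at 5 mg/L against control at 180 min (x axis) for each measured probe set of 41 gene lists, ordered by list median (black bars). Red points were called higher, blue points lower and grey points not called, and the number of probe sets stands beside each name. Medians run from 1.25 for a-specific genes to -0.50 for the respiratory chain.

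Genes of iron uptake were higher almost throughout. In yeast the factor Aft1 and its partner Aft2 turn on cell surface reductases, the Fet3 and Ftr1 permease complex and transporters for siderophores, which are iron chelators of microbial origin, when iron-sulfur cluster supply is low. Of 33 measured members 30 were called higher, 1 lower and 2 not, with a median of 0.78 (0.54 on the poly-A scaling) beside -0.04 for all probe sets. All 7 siderophore uptake genes were higher, with a median of 2.21. FIT1, a wall mannoprotein that retains siderophore iron, read 8.17, 8.34 and 8.76 at 5 mg/L, against 6.01, 5.89 and 6.02 in control. FIT2 read 11.81, 11.91 and 12.08 at 5 mg/L, against 9.62, 9.62 and 9.47 in control. Both genes were more than 5-fold higher, and no array at 5 mg/L came within 2 log2 units of a control array.

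The transporters ARN1, ARN2, SIT1 and ENB1, each of which takes up particular ferric siderophores, were 4.62-, 4.82-, 4.61- and 2.87-fold higher. ARN2 had 10.29, 10.31 and 10.50 at 5 mg/L, against 8.01, 8.14 and 8.15 in control, with a small scatter in both groups. In the reductive pathway 13 of 14 members were higher. FRE5, a predicted ferric reductase, rose 4.44-fold, the permease FTR1 2.43-fold, the multicopper oxidase FET3 2.18-fold and CCC2, the copper pump that loads Fet3, 2.29-fold. ATX1, the copper chaperone upstream of Ccc2, was not called (0.03).

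TIS11, which binds and destabilises mRNAs of iron-consuming proteins, read 9.53, 9.68 and 9.80 at 5 mg/L, against 7.25, 7.25 and 7.07 in control. It was 5.58-fold higher (log2 2.48, SE 0.11, adjusted p = 1.97e-11). HMX1, the haem oxygenase that recovers haem iron, rose 2.83-fold, and AFT1 itself rose by log2 0.78 (SE 0.06). ISU1, a scaffold for iron-sulfur clusters, rose by 0.74, whereas its paralogue ISU2 fell by 0.32. AFT2 was not called (-0.01). The copper transporters CTR1 and CTR3 rose 2.34- and 2.7-fold, and in the copper and zinc list 8 of 17 were higher and 2 lower, with a median of 0.13 (-0.11 on the poly-A scaling). ZRT2, the low-affinity zinc transporter, fell by 0.57, and IZH1 and ZPS1, known to respond to zinc, rose by 0.60 and 0.57.

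Drug efflux genes held both higher and lower calls. PDR15, an ABC transporter of the plasma membrane, read 10.78, 10.92 and 10.85 at 5 mg/L, against 8.93, 9.03 and 9.03 in control (3.61-fold higher, adjusted p = 1.6e-11). PDR5, the main multidrug pump, read 11.88, 11.93 and 11.82 at 5 mg/L, against 10.74, 10.85 and 10.86 in control (2.08-fold higher). PDR3, a regulator of both that also regulates its own gene, read 8.43, 8.59 and 8.56 at 5 mg/L, against 7.29, 7.27 and 7.30 in control (2.36-fold higher). The groups did not overlap in any of these, as in 70% of all probe sets. Of 10 ABC transporters 6 were higher and none lower, with SNQ2, YOR1, PDR10 and PDR11 at 0.52 to 0.71 and PDR12, the weak acid pump, not called (-0.18).

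Of 4 lipid enzymes and lipid transfer proteins in this list 3 were higher and 1 lower. ICT1, a lysophosphatidic acid acyltransferase, was 3.08-fold higher and PDR16, a phosphatidylinositol transfer protein, 2.26-fold. Among 14 other transporters 3 were higher and 7 lower, with QDR2, TPO4, TPO3 and both probe sets of TPO2 lower and RSB1, which moves sphingoid bases (2.77-fold), RTA1 and TPO1 higher. Over the whole list 16 of 35 were higher and 9 lower, with a median of 0.16 (-0.08 on the poly-A scaling). YAP1, the oxidative stress regulator that also serves drug resistance, rose by 0.62.

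Of the general stress genes 28 of 37 were higher and 2 lower, with a median of 0.72 (0.48 on the poly-A scaling). XBP1, a repressor made under stress, read 6.78, 7.01 and 7.09 at 5 mg/L, against 4.87, 4.71 and 4.91 in control (4.38-fold higher). DDR2, a small stress protein, read 9.49, 9.68 and 9.74 at 5 mg/L, against 7.67, 7.75 and 7.75 in control (3.77-fold higher). HSP12, a hydrophilin of the membrane, read 9.52, 9.66 and 9.51 at 5 mg/L, against 8.13, 8.42 and 8.28 in control (2.44-fold higher). All 3 were separated from control by more than 1 log2 unit between nearest arrays. The small heat shock protein gene HSP42 rose 2.91-fold, the wall protein gene SPI1 2.38-fold and the mitochondrial FMP16 2.85-fold. Among regulators other than XBP1, MSN2 and GIS1 rose by 0.36 and 0.34, and MSN4 was not called (0.02). YPR1, an aldo-keto reductase, was one of the 2 lower members, at -0.44.

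Chaperone genes had 16 of 29 higher and 3 lower, with a median of 0.15 (-0.08 on the poly-A scaling). APJ1, an Hsp40 protein, rose 2.61-fold, and SSA4, the stress-induced cytosolic Hsp70, HSP78 of mitochondria, and the regulator HSF1 rose by log2 1.01, 1.01 and 0.89. HSP104, the disaggregase, rose by 0.73, while HSP82 was not called (0.12). Trehalose synthesis genes TPS1, TPS2 and TSL1 rose by 0.62, 0.60 and 0.51. Of the glycogen genes the debranching enzyme GDB1 and the glucoamylase SGA1 rose 2.18- and 2.26-fold, and the glycogen synthase GSY1 and UGP1, which makes UDP-glucose, fell by 0.69 and 0.45. The glycogen and trehalose list as a whole had 10 of 16 higher and 4 lower, with a median of 0.22 (-0.02 on the poly-A scaling).

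The oxidative stress list was mixed, with 16 of 46 higher, 9 lower and 21 not called. Its median of 0.06 turned to -0.18 on the poly-A scaling. After GTO3, the largest rises were OYE2, an old yellow enzyme (log2 1.01), TSA2, an inducible peroxiredoxin (1.00), and CTA1, the peroxisomal catalase (0.96). SOD2, the mitochondrial superoxide dismutase, fell by 0.56, GSH2 of glutathione synthesis by 0.58, and the glutaredoxins GRX3 and GRX5, which take part in iron-sulfur metabolism, by 0.39 and 0.49. TRR1 and TRX2 of the cytosolic thioredoxin system were not called (0.08 and 0.05). Glycerol genes GUT2, GPD2 and GPP1 rose by 0.91, 0.74 and 0.55, and the osmotic and glycerol list had 7 of 16 higher and 2 lower, with a median of 0.05 (-0.18 on the poly-A scaling).

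Among DNA damage genes HUG1, a small inhibitor of ribonucleotide reductase, read 7.60, 7.73 and 8.12 at 5 mg/L, against 5.63, 5.64 and 5.73 in control (4.45-fold higher). RNR3, the damage-inducible large subunit, read 8.11, 8.22 and 8.33 at 5 mg/L, against 6.42, 6.44 and 6.55 in control (3.36-fold higher). The lowest array at 5 mg/L was more than 1.5 log2 units above the highest control array in both. RNR2 and RNR4, the small subunits, rose by 0.89 and 0.46. The checkpoint kinase RAD53 rose by 0.44, its relative DUN1 fell by 0.36, and RAD54 and RAD52 of recombination repair were not called (0.07 and 0.12). In all 10 of 24 members were higher and 3 lower, with a median of 0.17 (-0.07 on the poly-A scaling), 6 of the 10 from the ribonucleotide reductase group of 9.

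Of 27 hexose transport probe sets 15 were higher and 6 lower, with a median of 0.33 (0.19 with quantile normalization, 0.09 on the poly-A scaling). HXT1, a low-affinity transporter made at high glucose, read 8.19, 8.25 and 8.39 at 5 mg/L, against 6.19, 6.15 and 6.26 in control (4.22-fold higher, adjusted p = 5.4e-12). HXT5, which is made in slow growth, read 5.98, 6.27 and 6.51 at 5 mg/L, against 4.26, 4.17 and 4.31 in control (4.02-fold higher). HXT2, a high-affinity transporter, read 10.11, 10.20 and 10.31 at 5 mg/L, against 8.58, 8.49 and 8.45 in control (3.25-fold higher). These transporters rose while HXT4 and HXT7, also of high affinity, fell. The groups overlapped in none of the 5, as in 70% of all probe sets. The galactose permease GAL2 rose 3.34-fold from a low signal. Among regulators the repressors MIG2 and MIG3 rose by 0.95 and 0.99, and MTH1, which keeps HXT genes off without glucose, fell by 0.55.

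In glycolysis and fermentation 12 of 26 were higher and 1 lower, with a median of 0.08 (-0.16 on the poly-A scaling). ALD6, the cytosolic acetaldehyde dehydrogenase, read 12.63, 12.69 and 12.65 at 5 mg/L, against 11.53, 11.36 and 11.37 in control (2.35-fold higher), and TDH3, CDC19 and ADH1, the main isoenzymes, were not called (0.05, 0.05 and 0.04). Gluconeogenic and glyoxylate genes had 11 of 19 higher and 1 lower, with a median of 0.37 (0.15 with quantile normalization, 0.13 on the poly-A scaling). Among them ADY2, CYB2, YAT1, PCK1 and SFC1 were at log2 1.05 to 1.44. MDH2, the cytosolic malate dehydrogenase of the same pathway, fell by 0.92. Control signals of ADY2 (2.71), CYB2 (4.75) and PCK1 (5.25) were in the ranges, given above, where higher calls outnumbered lower ones over all probe sets.

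In the citrate cycle 4 of 17 were higher and 11 lower, with a median of -0.20. IDH1, a subunit of isocitrate dehydrogenase, read 11.24, 11.34 and 11.30 at 5 mg/L, against 10.25, 10.13 and 10.11 in control (2.19-fold higher), and the other higher members were IDH2, CIT2, the peroxisomal citrate synthase, and ACO1 at 0.59, 0.48 and 0.37. Among the lower members SDH2, a subunit of succinate dehydrogenase, LSC2 of succinyl-CoA ligase and KGD2 of ketoglutarate dehydrogenase were at -0.60, -0.44 and -0.38. The arrays of IDH1 at 5 mg/L all lay above, and those of SDH2 all below, every control array. Over all probe sets 70% were free of overlap.

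Respiratory chain genes fell together. Of 37 members 30 were lower, 4 higher and 3 not called, with a median of -0.50 (-0.48 with quantile normalization, -0.73 on the poly-A scaling). CYC1, the main cytochrome c, read 7.49, 7.30 and 7.53 at 5 mg/L, against 8.41, 8.36 and 8.22 in control (1.85-fold lower). COX4, a subunit of cytochrome c oxidase, read 8.80, 8.61 and 8.63 at 5 mg/L, against 9.48, 9.57 and 9.49 in control (1.78-fold lower). QCR7 of the bc1 complex averaged 10.18 ± 0.14 at 5 mg/L and 11.05 ± 0.05 in control (SD, n = 3 each; 1.83-fold lower). The groups did not overlap in these 3 genes, as in 70% of all probe sets. Lower calls came from all 3 parts of the list, with 9 of 12 NADH dehydrogenase and bc1 genes, 10 of 11 cytochrome c and oxidase genes and 11 of 14 ATP synthase genes.

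The 4 higher members were NDE2, an external NADH dehydrogenase, STF1, which stabilises the inhibited ATP synthase, CYC7, the hypoxic cytochrome c, and NDE1, at log2 0.80, 0.61, 0.36 and 0.18. The NDE1 call was lost without 5 mg/L replicate 3 or any control array, and its value was -0.06 on the poly-A scaling. CYC7 (7.13 at 5 mg/L, 6.76 in control) moved against CYC1. COX5A and COX5B, alternative isoforms of one oxidase subunit used with and without oxygen, both fell, by 0.21 and 0.52. Of the hypoxic list, which includes anaerobic wall proteins of the PAU family, 8 of 13 probe sets were higher and 1 lower. ROX1, the haem-dependent repressor of hypoxic genes, rose by 1.04, and AAC3, an anaerobic ADP/ATP carrier, fell by 0.41.

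Peroxisome genes had 13 of 31 higher and 6 lower, with a median of 0.10 (-0.14 on the poly-A scaling), PEX21 and PEX22 of protein import at 0.74 and 0.63 and DCI1 at -0.66.

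Ribosome biogenesis genes were balanced at this time. Of 84 members 26 were higher, 20 lower and 38 not called, with a median of 0.00 (-0.24 on the poly-A scaling). IMP4, of the small subunit processome, read 9.38, 9.18 and 9.29 at 5 mg/L, against 7.99, 8.02 and 7.99 in control (2.44-fold higher), more than 1 log2 unit above control on each array. NOG1, RRS1, CIC1 and MAK16 of large subunit assembly rose by 0.65 to 0.67. HAS1, a helicase used for both subunits, and RRP5, needed for processing of the ribosomal RNA precursor, fell by 0.49 and 0.55. RNA polymerase I subunits RPA190 and RPA135 fell by 0.32 and 0.29, and the large subunit list had more higher (17) than lower (6) calls of 41.

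Translation factors and tRNA synthetases had 7 of 50 higher and 23 lower, with a median of -0.12. Lower calls took 11 of 19 tRNA synthetases, such as WRS1, GUS1 and ILS1 at -0.46, -0.42 and -0.41, and the initiation factor subunits GCD7 and SUI3 at -0.67 and -0.51. NIP1, a subunit of eIF3, and SUP35, the release factor eRF3, rose by 0.91 and 0.68. Both differ in this from other subunits of their complexes, since PRT1 of eIF3 and SUP45, the partner of Sup35, fell by 0.30 and 0.34.

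Among phospholipid genes INO1 stood alone at the top, while 15 of 27 members were lower, 5 higher and 7 not called, with a median of -0.18. All 4 transporters of inositol, choline and glycerophosphoinositol fell, with ITR1 at -0.42 and the choline permease HNM1 at -0.59. The choline phosphotransferase CPT1, the cardiolipin synthase CRD1 and the lipid phosphatase genes LPP1 and DPP1 fell by 0.70, 0.58, 0.80 and 0.54. CDS1, which makes CDP-diacylglycerol, rose by 0.64, and CHO1 and OPI3, further known targets of inositol control, were not called (-0.03 and 0.19). INO2 and OPI1, an activator and a repressor of INO1, rose by 0.27 and 0.33, and INO4 was not called (-0.15).

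In fatty acid synthesis 4 of 14 were higher and 7 lower. OLE1, the only fatty acid desaturase of this yeast, and its regulators SPT23 and MGA2 rose by 0.38, 0.34 and 0.29, while FAA1, the main acyl-CoA synthetase, ELO1 and FAS2 fell by 0.59, 0.49 and 0.36. Ergosterol genes had 12 of 32 higher and 8 lower, with a median of 0.10 (-0.14 on the poly-A scaling). ERG3, ERG25 and ERG1 rose by 0.86, 0.72 and 0.57, and ERG7, HMG2 and ERG8 fell by 0.52, 0.45 and 0.28, so both directions occurred within the pathway. Of sphingolipid genes 6 of 23 were higher and 10 lower. LCB1, a subunit of the first enzyme, rose by 0.56 while its partner LCB2 fell by 0.30, and the ceramide synthase LAG1 and its subunit LIP1 fell by 0.75 and 0.53.

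Genes that alpha cells normally keep off were higher. Of the 7 a-specific genes 6 were higher and 1 was not called, with a median of 1.25 (1.01 with quantile normalization or on the poly-A scaling). MFA2, which encodes a-factor, read 5.33, 5.26 and 4.94 at 5 mg/L, against 2.60, 2.34 and 2.63 in control. AGA2, the adhesive subunit of a agglutinin, read 4.74, 4.94 and 4.51 at 5 mg/L, against 2.04, 2.43 and 2.08 in control. BAR1, the protease that degrades alpha-factor, read 5.80, 5.81 and 5.75 at 5 mg/L, against 3.67, 3.72 and 3.72 in control. The arrays of the groups did not overlap in these genes, as in 70% of all probe sets. Control signals of these genes lay between 2 and 4, where 99 of all 206 probe sets were called higher.

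MFA1 and ASG7 rose by 1.25 and 1.02. Control signals of MFA2, AGA2 and ASG7 lay under that of LEU2, so the sizes of their rises are uncertain. STE2, the alpha-factor receptor, was called at 0.28, a call lost without any 1 of 4 arrays (5 mg/L replicates 2 and 3, control replicates 1 and 2) and turned to -0.04 with quantile normalization, and STE6, the a-factor exporter, was not called (0.08). The alpha-specific genes went both ways, with AFB1, MF(ALPHA)1 and SAG1 higher by 0.99, 0.37 and 0.26, and STE3 and MF(ALPHA)2 lower by 0.45 and 0.41. Of 15 pheromone-induced genes 9 were higher and 3 lower, led by FIG2 and AGA1, adhesins of mating cells, at 1.35 and 1.23. The haploid-specific genes had none higher and 4 of 9 lower, with FAR1, which arrests the cell cycle, and the G protein subunit STE4 at -0.55 and -0.42.

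Meiosis genes had 17 of 32 higher, 3 lower and 12 not called, with a median of 0.35 (0.12 with quantile normalization or on the poly-A scaling). After MAM1 and SAE3, the recombination genes SPO11, which cuts DNA in meiosis, and REC114 rose by 1.41 and 1.28. The regulators NDT80 and IME1 rose by 0.81 and 0.59, and MSH4, of crossover formation, fell by 0.88. Several genes known to be expressed together with these were not called, among them HOP1 (0.13), ZIP2 (-0.03) and MEI5 (0.02). Of 32 spore formation genes 12 were higher, 4 lower and 16 not called, with a median of 0.12 that turned to -0.04 with quantile normalization and to -0.12 on the poly-A scaling. SPS1, a kinase, SMA1 and DIT1, of prospore membrane and spore wall, rose by 1.37, 0.95 and 0.73, whereas SPS4 fell by 1.17.

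Daughter cell separation genes, many of which encode enzymes and proteins of the cell wall, had 11 of 12 higher and 1 not called (AMN1, -0.06), with a median of 0.55 (0.31 on the poly-A scaling). PRY3, a wall-associated protein, read 10.08, 10.36 and 10.31 at 5 mg/L, against 8.88, 8.64 and 8.81 in control (2.78-fold higher). DSE2 read 11.38, 11.56 and 11.59 at 5 mg/L, against 10.45, 10.29 and 10.40 in control (2.18-fold higher). The groups lay more than 0.9 log2 units apart in both. The chitinase CTS1 and the glucanases DSE4, SCW11 and EGT2, which act on the septum, rose by 0.66 to 0.80.

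The mitotic genes had the opposite balance. Of 15 genes of G2 and M phase 8 were lower and 2 higher, with a median of -0.28, and the B-type cyclins CLB1, CLB2, CLB4 and CLB3 were at -1.28, -0.62, -0.44 and -0.28. The polo kinase CDC5 fell by 0.35, and ALK1 and NDD1 rose by 0.67 and 0.40. Of 33 G1 and S phase genes 12 were lower and 4 higher, with a median of -0.07. The cyclins CLB6, CLN1 and CLB5 fell by 0.60, 0.46 and 0.34, while SIC1, the inhibitor of B-type cyclin kinase, and POL30, the replication clamp, rose by 0.71 and 0.56. Of 10 histone probe sets 4 were lower, with one HTA2 probe set at -0.46 and the other at -0.04 and not called.

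Cell wall genes had 25 of 50 higher, 7 lower and 18 not called, with a median of 0.26 (0.02 on the poly-A scaling). Mannoproteins made up most of the rises, with 16 of 21 higher and none lower. PIR1, linked to glucan, read 12.19, 12.31 and 12.32 at 5 mg/L, against 11.27, 10.92 and 10.91 in control (2.37-fold higher), and PIR3, DAN1 and TIR1 rose by 1.15, 1.22 and 0.94. CCW12, CWP1, CWP2 and CIS3 were not called (-0.07 to -0.04). BAG7, which regulates Rho1, read 4.32, 4.21 and 4.36 at 5 mg/L, against 1.99, 2.43 and 2.29 in control (4.18-fold higher). This control signal lay under that of LEU2, so the size of the rise is uncertain. The arrays of the groups were clear of each other in both PIR1 and BAG7, as in 70% of all probe sets. WSC4, a stress sensor, and FKS1, the main glucan synthase, fell by 0.95 and 0.31, while GSC2, the alternative synthase, RLM1, a regulator of the integrity pathway, and the sensor MTL1 rose by 0.56, 0.74 and 1.09. The kinases SLT2 and BCK1 were not called (-0.02 and 0.05).

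Amino acid biosynthesis genes were lower in 33 of 67 cases and higher in 16, with a median of -0.15. LYS20, a homocitrate synthase, read between 9.95 and 10.05 at 5 mg/L, against 8.61, 8.75 and 8.71 in control (2.48-fold higher). HIS1, which starts histidine synthesis, read 10.02, 9.78 and 9.71 at 5 mg/L, against 10.78, 10.97 and 10.95 in control (2.09-fold lower). CPA1, of arginine synthesis, was 2.06-fold higher, and ILV2, GDH3 and ARG1 rose by 0.93, 0.94 and 0.73. Of 10 branched-chain genes 7 were lower, including LEU1, LEU4 and LEU9, and of 17 aromatic and histidine genes 10 were lower, including HIS4 at -0.84. GCN4, the activator of most of these genes, was not called (0.09).

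Other nitrogen and sulfur genes were divided. In the nitrogen catabolite list, where 16 of 37 were higher and 9 lower with a median of 0.08 (-0.15 on the poly-A scaling), the proline oxidase PUT1 rose 2.82-fold, and the arginase CAR1, UGA2 of GABA use and the general permease GAP1 rose by 1.04, 0.96 and 0.88. Beside OPT2, the permeases BAP3, TAT2 and PTR2 fell by 0.64, 0.34 and 0.39. In the sulfur list 10 of 27 were higher and 4 lower with a median of 0.10 (-0.14 on the poly-A scaling), and CYS3, the cystathionine gamma-lyase gene, MET2 and the S-adenosylmethionine permease SAM3 were at 1.08, 0.77 and -0.95. The list of one-carbon and purine genes had 14 of 29 lower and 5 higher, among them IMD4 of guanine nucleotide synthesis (-0.88), SHM1 (-0.77) and MTD1 (-0.56). Of 14 Ehrlich pathway and ester genes 7 were lower and 1 higher. EEB1, which makes ethyl esters, read 6.78, 6.81 and 6.72 at 5 mg/L, against 7.76, 7.80 and 7.82 in control (2.03-fold lower). ARO80, the activator of ARO9 and ARO10, fell by 0.39.

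Phosphate genes also went both ways. PHO11, an acid phosphatase with a probe set that other transcripts may also bind, read 10.56, 10.40 and 10.50 at 5 mg/L, against 9.32, 9.17 and 9.19 in control (2.39-fold higher). PHO5, the acid phosphatase known for the same regulation, read 8.40, 8.40 and 8.56 at 5 mg/L, against 9.55, 9.13 and 9.13 in control (1.76-fold lower). The arrays of the groups did not overlap in either gene, as in 70% of all probe sets. PHO89, a sodium-coupled phosphate transporter, rose 2.42-fold, and the polyphosphate genes VTC2 and VTC3 fell by 0.67 and 0.47 while VTC4 rose by 0.36.

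Protein turnover genes changed in part. The autophagy and vacuole list had 21 of 37 higher and 2 lower, with a median of 0.21 (-0.03 on the poly-A scaling). PRB1, a vacuolar protease, rose 2.42-fold, ATG10 2.31-fold, and ATG40, the receptor for autophagy of the endoplasmic reticulum, 2.2-fold. ATG8, which coats the forming vesicle, read 8.55, 8.57 and 8.43 at 5 mg/L, against 7.54, 7.55 and 7.56 in control (1.96-fold higher). Of 34 proteasome genes 9 were higher and 9 lower, beside 27.1% higher and 34.3% lower over all probe sets. The regulator RPN4 was at 0.80, RPN1 at 0.94 and RPT6 at -0.43. In the endoplasmic reticulum 9 of 20 folding genes were lower, including the chaperone KAR2 (-0.22) and CNE1 (-0.45), while ERO1, the thiol oxidase, rose by 0.69 and HAC1 and IRE1 were not called (-0.07 and 0.01).

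The dose comparison at 180 min asked how far 1 mg/L resembled either end. Between 5 and 1 mg/L 3264 probe sets (59.4%) were called, 1467 higher and 1797 lower (338 on the poly-A scaling, 173 higher and 165 lower), and 3019 of these had the same call in 5 mg/L against control. These comparisons share the arrays at 5 mg/L. Between 1 mg/L and control 6 probe sets (0.109%) were called: RSB1, YGR035C and ATG40 higher, and EEB1, ARO10 and BAT2 lower. When each of the 6 arrays was left out in turn, which gave 2 to 9 calls, RSB1 and YGR035C were called 6 times, EEB1 2 times and ATG40, ARO10 and BAT2 1 time each. With the compared arrays alone RSB1 and EEB1 were called, and on the poly-A scaling none of the 6 was (0 calls in limma, 5 probe sets at an unadjusted p under 0.05). YGR035C averaged 6.40 in control, 7.01 at 1 mg/L and 9.84 at 5 mg/L, and RSB1 averaged 7.19 in control, 7.80 at 1 mg/L and 8.66 at 5 mg/L. ARO10 averaged 9.66 in control, 9.15 at 1 mg/L and 7.70 at 5 mg/L, and EEB1 averaged 7.79 in control, 7.24 at 1 mg/L and 6.77 at 5 mg/L.

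Of these 6 genes BAT2 alone had no call between 5 mg/L and control (0.05, adjusted p = 0.329), while it was higher at 5 than at 1 mg/L by 0.31. Of the 15 largest rises at 5 mg/L, YGR035C alone was called at 1 mg/L against control. MAM1 averaged 3.87 in control, 3.90 at 1 mg/L and 7.57 at 5 mg/L. HXT1 averaged 6.20 in control, 5.93 at 1 mg/L and 8.28 at 5 mg/L, and MIS1 10.12 in control, 10.12 at 1 mg/L and 8.96 at 5 mg/L. The iron uptake list had a median of 0.09 at 1 mg/L against control with no member called, and the respiratory chain list 0.03, also with no member called. A missed threshold at 1 mg/L does not show equal levels.

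The time comparison asked whether the effect of 5 mg/L differed between 180 and 120 min. At 120 min 3194 probe sets (58.1%) were called between 5 mg/L and control. Calls at both times numbered 2354, with the same sign for 2293 and opposite signs for 61. Calls at 180 min without a call at 120 min numbered 402 higher and 618 lower, but the test of the difference was passed by 221 of these. In all 824 probe sets (15%) had an effect that differed between the times, 469 toward higher and 355 toward lower values at 180 min. The poly-A difference between 5 mg/L and control was 0.24 at 180 min and 0.78 at 120 min (difference -0.54, SE 0.32), so scaling on these transcripts adds 0.54 to every difference between the times. On that scale 5 probe sets were called, all toward higher values (FIT1, HXT1, YMR317W, YAR068W and YAR066W). On the authors' scale leaving out 1 array gave between 403 calls, without control replicate 2 at 180 min, and 1160 calls, without 5 mg/L replicate 2 at 120 min.

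**Figure D4:**
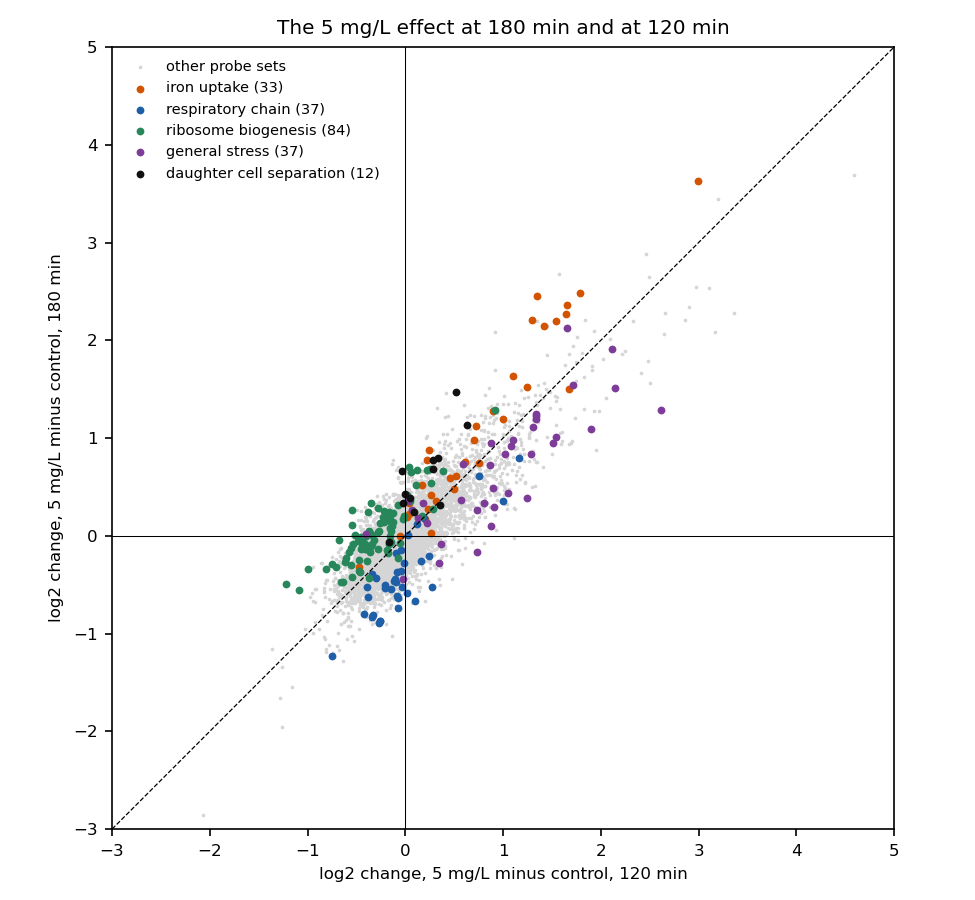
Log2 change at 5 mg/L against control at 120 min (x axis) and at 180 min (y axis) for every S. cerevisiae probe set, with 5 gene lists coloured and the number of probe sets beside each name. Points above the dashed line had a higher value at 180 min. Ribosome biogenesis, iron uptake and daughter cell separation genes lie mostly above the line, and respiratory chain and general stress genes mostly below it.

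The fall of respiratory chain genes against control was larger at 180 min. Its median was -0.50 at 180 min and -0.09 at 120 min, and 24 of 37 members had a called difference, all toward lower values, including 10 of 11 cytochrome c and oxidase genes. Its median difference of -0.37 turns to 0.18 on the poly-A scaling. CYC1 was at -0.89 at 180 min and -0.27 at 120 min (difference -0.62, SE 0.11, adjusted p = 0.00291), COX7 at -0.67 and 0.10 (difference -0.77), and COX5B at -0.52 and 0.27 (difference -0.78). QCR7 and ATP17 had differences of -0.61 each. For CYC1 the group means were 7.44 at 5 mg/L and 8.33 in control at 180 min, and 7.80 at 5 mg/L and 8.07 in control at 120 min, and the groups were farther apart at the later time. INH1 (difference -0.48) averaged 8.27 at 5 mg/L and 9.51 in control at 180 min, against 8.21 and 8.96 at 120 min. Its difference was thus in the control arrays.

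Ribosome biogenesis showed the reverse. The list median was 0.00 at 180 min and -0.34 at 120 min, and 50 of 84 members had a called difference, all toward higher values. NSR1, the yeast nucleolin, was at -0.34 at 180 min and -1.0 at 120 min (difference 0.66, SE 0.09, adjusted p = 0.000485), HAS1 at -0.49 and -1.22 (difference 0.73), and DBP2, an RNA helicase, at 0.26 and -0.55 (difference 0.81). The NSR1 means were 9.38 at 5 mg/L and 9.72 in control at 180 min, against 9.15 at 5 mg/L and 10.16 in control at 120 min, so control levels were lower at the later time. TOD6, a repressor of these genes, was at 0.78 at 180 min and -0.13 at 120 min (difference 0.91). It averaged 7.14 at 5 mg/L at both times, and in control 6.36 at 180 min and 7.27 at 120 min.

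The rise of iron uptake genes over control was larger at 180 min, with 14 of 33 members differing toward higher values and none toward lower. FIT1 was at 2.45 at 180 min and 1.35 at 120 min (difference 1.10, SE 0.19, adjusted p = 0.00256), ARN1 at 2.21 and 1.30 (difference 0.91), TIS11 at 2.48 and 1.79 (difference 0.69), and AFT1 at 0.78 and 0.22 (difference 0.55). FIT1 averaged 8.42 at 5 mg/L and 5.97 in control at 180 min, against 7.75 and 6.40 at 120 min. ARN1 averaged 10.19 and 7.98 at 180 min, against 9.77 and 8.47 at 120 min. TIS11 averaged 9.67 and 7.19 at 180 min, against 9.37 and 7.59 at 120 min. Part of each of these differences was thus in lower control levels at 180 min. HXT1 had the largest positive difference of those with all means above background, 2.08 at 180 min and 0.92 at 120 min (difference 1.15, SE 0.11, adjusted p = 2.16e-05). Its means at 5 mg/L were 8.28 at 180 min and 8.25 at 120 min, while its control means were 6.20 at 180 min and 7.33 at 120 min. HXT2 showed the same arrangement (difference 0.78).

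Daughter cell separation genes differed toward higher values in 9 of 12 cases, with PRY3 at 1.47 at 180 min and 0.52 at 120 min (difference 0.95) and SCW11 at 0.66 and -0.03 (difference 0.69). PRY3 averaged 10.25 at 5 mg/L and 8.78 in control at 180 min, against 9.81 and 9.29 at 120 min. YMR317W, YAR068W, and YAR066W, whose probe set is of a shared type, had differences of 1.11, 1.04 and 1.00, and the adhesin AGA1 of 0.79. General stress genes went the other way, as their median was 0.72 at 180 min and 0.91 at 120 min, with 14 of 37 members differing, all toward lower values (median difference -0.20, and 0.34 on the poly-A scaling). HSP12 was at 1.29 at 180 min and 2.62 at 120 min (difference -1.33, SE 0.18, adjusted p = 0.000435), the most negative of the named differences. Its means were 9.57 at 5 mg/L and 8.28 in control at 180 min, against 9.87 at 5 mg/L and 7.25 in control at 120 min, so most of the difference was in the control arrays. TMA10 (difference -0.81), GAD1, the glutamate decarboxylase (-0.89), EGO4 (-1.13) and the glycogen synthase GSY1 (-0.76) followed. GAD1 and EGO4 were called higher at 120 min and were not called at 180 min (-0.17 and -0.02). GAD1 averaged 8.33 at 5 mg/L and 8.50 in control at 180 min, against 8.57 and 7.84 at 120 min. EGO4 averaged 6.82 and 6.84 at 180 min, against 6.99 and 5.88 at 120 min. In GAD1, EGO4, TMA10 and GSY1 the control means differed between the times by more than the means at 5 mg/L.

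Several meiosis and spore genes had smaller rises at 180 min. MAM1 was at 3.69 at 180 min and 4.59 at 120 min (difference -0.89, SE 0.26, adjusted p = 0.0306, and up to 0.0831 when 1 array was left out), SPR3 at 2.28 and 3.36 (difference -1.08), and SRT1, which makes long-chain polyprenols, at 0.88 and 1.95 (difference -1.07). FIG1, of mating, was lower at 180 min (-0.44) and higher at 120 min (0.48), a difference of -0.92. It averaged 3.01 at 5 mg/L and 3.44 in control at 180 min, against 3.30 and 2.82 at 120 min. Some falls against control were larger at 180 min, in OPT2 (-2.86 against -2.07 at 120 min, difference -0.80), ARO10 (-1.96 against -1.26, difference -0.69) and CLB1 (-1.28 against -0.64, difference -0.64). OPT2 averaged 4.11 at 5 mg/L and 6.98 in control at 180 min, against 4.07 and 6.13 at 120 min, so its difference was in the control arrays. ARO10 averaged 7.70 and 9.66 at 180 min, against 7.96 and 9.22 at 120 min. CLB1 averaged 8.77 and 10.04 at 180 min, against 8.98 and 9.62 at 120 min. EEB1 was at -1.02 at 180 min and -0.14 at 120 min (difference -0.88, adjusted p = 0.000386). Its control mean was 7.79 at 180 min and 7.03 at 120 min, and its mean at 5 mg/L was 6.77 at 180 min and 6.89 at 120 min.

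**Figure D5:**
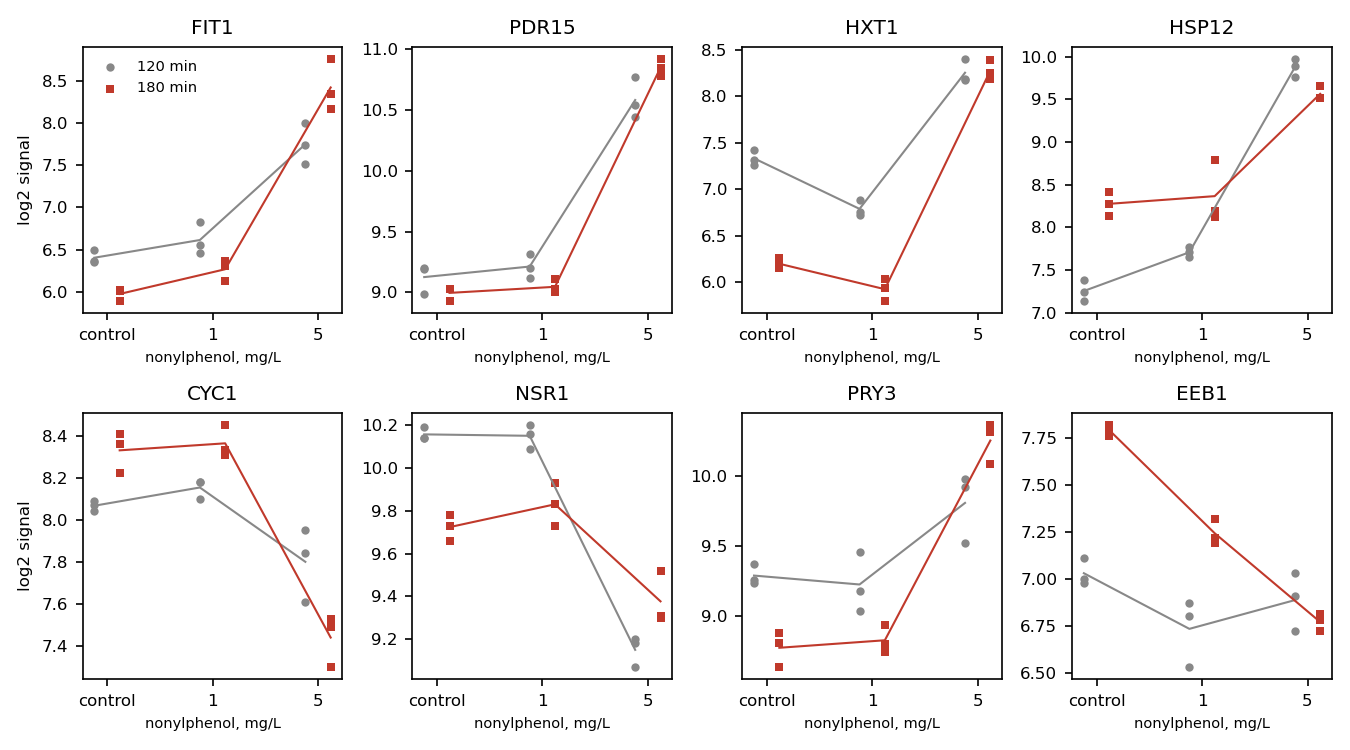
Log2 signal of 8 genes on each array, by dose (x axis, control, 1 and 5 mg/L) at 120 min (grey circles) and 180 min (red squares), with lines through the means of 3 arrays. FIT1, PDR15 and PRY3 rise at 5 mg/L and were not called at 1 mg/L, and CYC1 falls further at 180 min. For HXT1, HSP12, NSR1, EEB1 and, by a small margin, PRY3 the control means differ between the times by more than the means at 5 mg/L.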

How the data were processed

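RNA of 18 cultures was read on single-colour Affymetrix yeast arrays after biotin labelling from the 3' end, per the labels' protocols. The deposited log2 values, 1 per probe set and array, were made by the authors with RMA, which corrects background, normalizes between arrays and summarises probes. RMA, affy and limma are named in the submitters' processing notes without versions, and the log base was inferred from the range of the values (0.41 to 13.74). Of 10928 probe sets, 7245 carried a gene name in the platform annotation, and 5498 of these were S. cerevisiae sets for 5449 genes (47 with several sets, each kept apart), while 1747 were for another yeast.

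A group-means model over all 18 arrays in 6 groups was fitted in R 4.3.3 by the lmFit, contrasts.fit and eBayes functions of limma 3.58.1, with two-sided tests and Benjamini-Hochberg adjustment over the 5498 sets at a threshold of 0.05. An exact permutation test of 3 arrays against 3 cannot go below p = 0.1, so single genes were tested only in this model. The background level, log2 1.86, is the percentile 95 of the mean signals of other-species sets. The number of arrays, not a read depth, limits precision, and 98.2 to 99.3% of S. cerevisiae sets lay above background on each array. In simulated data the comparison at 180 min recovered 34, 92, 100 and 100% of 50 genes each changed by log2 0.25, 0.5, 1 and 2. Among the unchanged genes of the 5498 tested there were 9 wrong calls. The simulation used independent normal noise for each gene and array and changed only those genes. It held no array-wide or level-dependent shift, so it cannot give the rate of wrong calls in the real arrays.

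Named genes were the 15 largest called, non-overlapping rises and falls above background, the 8 largest rises from background, the 8 largest differences between times in each direction, and members of 41 gene lists (1148 of 1174 genes measured) by smallest p, or opposite and uncalled members by role. The members and lists were chosen with earlier results of these data known. FLR1, HXK1, IME4 and PHO84, whose calls changed with 1 array left out or with quantile normalization, were set aside after their values were seen. Alternatives covered the arrays in the fit, a replicate block, quantile and poly-A scaling, the variance model, array weights, dim probe sets, all probe sets tested and each replicate left out. Quantile normalization, the block and the others are described with the results they affect. Promoter sequences were not used here.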

Additional observations from a re-analysis of the deposited data

Results flagged for a closer look

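The effect of 5 mg/L differed between 180 and 120 min for 824 probe sets by the limma test of the difference itself. Among genes toward higher values at 180 min, the differences on the log2 scale were 1.15 for HXT1, 1.11 for YMR317W, 1.10 for FIT1, 1.04 for YAR068W, 1.00 for YAR066W and 0.95 for PRY3. ARN1 and TOD6 followed at 0.91 each, then DBP2 at 0.81, AGA1 at 0.79, HXT2 at 0.78 and HAS1 at 0.73. TIS11 and SCW11 differed by 0.69 each, NSR1 by 0.66 and AFT1 by 0.55.

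Among genes toward lower values at 180 min, the differences were -1.33 for HSP12, -1.13 for EGO4, -1.08 for SPR3, -1.07 for SRT1 and -0.92 for FIG1. GAD1 and MAM1 followed at -0.89 each, then EEB1 at -0.88, TMA10 at -0.81, OPT2 at -0.80, COX5B at -0.78, COX7 at -0.77 and GSY1 at -0.76. ARO10 differed by -0.69, CLB1 by -0.64, CYC1 by -0.62, and QCR7 and ATP17 by -0.61 each. The difference of MAM1 had an adjusted p of 0.0306, which was 0.0831 at most with 1 array left out.

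Outside the named probe sets, 84 of 3470 sets with no gene name were higher at 5 mg/L than in control at 180 min and 132 were lower, 11 of the rises reaching 2-fold. Among 1747 sets for the other yeast, 16 were higher and 30 lower.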

How the results depend on the processing

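Between 5 mg/L and control at 180 min, 550 probe sets were called after scaling on poly-A controls, all of them also called on the authors' scale, and 3007 to 3189 with 1 array left out. The other alternatives gave 2900 to 3812 calls. For the difference between times, poly-A scaling left 5 calls, array weights gave 2203, testing all probe sets gave 313, and leaving out 1 array gave 403 to 1160. The lowest of these were 403 without control replicate 2 and 435 and 540 without 5 mg/L replicates 3 and 2 at 180 min, and 427 and 449 without control replicates 3 and 1 and 436 without 5 mg/L replicate 1 at 120 min. Between 5 and 1 mg/L poly-A scaling left 338 calls, and leaving out 1 array 2880 to 3128. Between 1 mg/L and control the count was 2 with the compared arrays alone, 106 with array weights, 3 with all probe sets tested and 2 to 9 with 1 array left out. Poly-A scaling left 0 of these in limma, with 5 probe sets at an unadjusted p under 0.05. Among named genes with a call, those that changed sign were NDE1 at -0.06 on the poly-A scaling and STE2 at -0.04 with quantile normalization, while values of uncalled genes between 0 and 0.24 turn below 0 on the poly-A scaling. Many more lost their call there without a change of sign. These were 130 of 321 probe set results of named genes, called or not, at 180 min, and 29 of 34 named differences between times. The cause was not tested. With the replicate number as a block, 3433 probe sets were called between 5 mg/L and control (3321 shared), 837 for the difference between times, 3283 between doses and 5 at 1 mg/L. Same-numbered arrays at 5 mg/L and in control had residual correlations of -0.286, -0.067 and -0.224, so the numbers were not taken to pair the arrays. Signals near the background of 1.86 have no reliable size.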
